A study of Mus musculus with 8 samples.

Results

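The 7 genes that move glycerol across the adipocyte membrane and supply glycerol 3-phosphate were followed in mouse fat: the aquaglyceroporin Aqp7, glycerol kinase (Gk), the glycerol-3-phosphate dehydrogenases Gpd1, Gpd1l and Gpd2, and the phosphoenolpyruvate carboxykinases Pck1 and Pck2. They were taken by name from a table of 28295 genes, and all 7 names matched exactly 1 row each. RNA was measured in epididymal white fat of male mice in 2 groups of 4 libraries. The KO-labelled group had both copies of Cul3 floxed and an AdipoQ-Cre transgene, which acts in adipocytes and leaves other cells of the tissue with intact alleles. The WT group was floxed in the same way and had no Cre. All mice ate Western diet over 8 weeks and fasted 6 h, and their age was not stated. Cullin 3, the product of Cul3, holds together ubiquitin ligases that mark proteins for breakdown. Libraries are called KO1 to KO4 and WT1 to WT4, after the replicate numbers in the labels.

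Triglyceride is built on glycerol 3-phosphate, and when it is broken down glycerol is left over. White adipocytes let that glycerol out through AQP7 and are known for low glycerol kinase activity, so that little of it is phosphorylated again. They instead reduce dihydroxyacetone phosphate with GPD1, drawing on glucose in the fed state and, in fasting, on PEPCK and the pathway called glyceroneogenesis. GPD2, on the inner mitochondrial membrane, runs the reaction the other way and passes electrons to the respiratory chain.

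Levels of Cul3 did not fall with the KO label, at 10.6, 11.2, 13.2 and 12.99 FPKM in KO1 to KO4 against 11.4, 9.66, 12.4 and 11.5 FPKM in WT1 to WT4 (limma adjusted p = 0.520). FPKM is fragments per kilobase of exon per 1000000 mapped fragments, and 1 value for the whole gene cannot show a loss limited to the floxed exons. Every direction below therefore rests on the labels. The table's low values step in whole reads, which gave between 15.2 and 18.7 × 1000000 reads per KO-labelled library and between 17.7 and 19.7 × 1000000 per WT library in listed genes. Most adipocyte markers were abundant, and the brown-fat gene Ucp1 was at 0.0629 FPKM or less in every library. Of 8 brown adipocyte markers 4 were tested, of which 2 were lower and 1 higher. Their sums were 4.02 to 8.06 FPKM in KO-labelled fat and 12.1 to 28.2 FPKM in WT. Of 16 adipocyte markers 14 were lower and none higher, with summed levels of 4325 to 5754 FPKM in KO-labelled fat and 6573 to 9882 FPKM in WT. Of 12 macrophage markers 6 were higher, with sums of 781 to 1834 FPKM in KO-labelled fat and 566 to 1553 FPKM in WT. WT4 stood apart from WT1 to WT3 with the 1553 FPKM of macrophage markers, and KO4 held the lowest such sum of its group. In bulk tissue, fewer cells of a type and less RNA per cell cannot be told apart.

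Of the 7 genes, Pck2 was higher and Gpd1 lower in KO-labelled fat, and the other 5 were not called. Calls needed an adjusted p below 0.05 in the limma fit of 14400 genes with a mean of at least 0.5 FPKM, a filter all 7 passed, and 11.7% of those genes were called higher and 18.6% lower. The share of called genes among the 7 was thus near that of all genes, 30.4%. The median log2 difference was -0.07 over the 7 genes and -0.02 over all tested genes. Values did not overlap between the groups for 3 of the 7, Pck2, Gpd1 and Gk, and for 31.2% of all tested genes, 12.1% with KO-labelled fat higher and 19.1% with it lower.

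**Figure D1:**
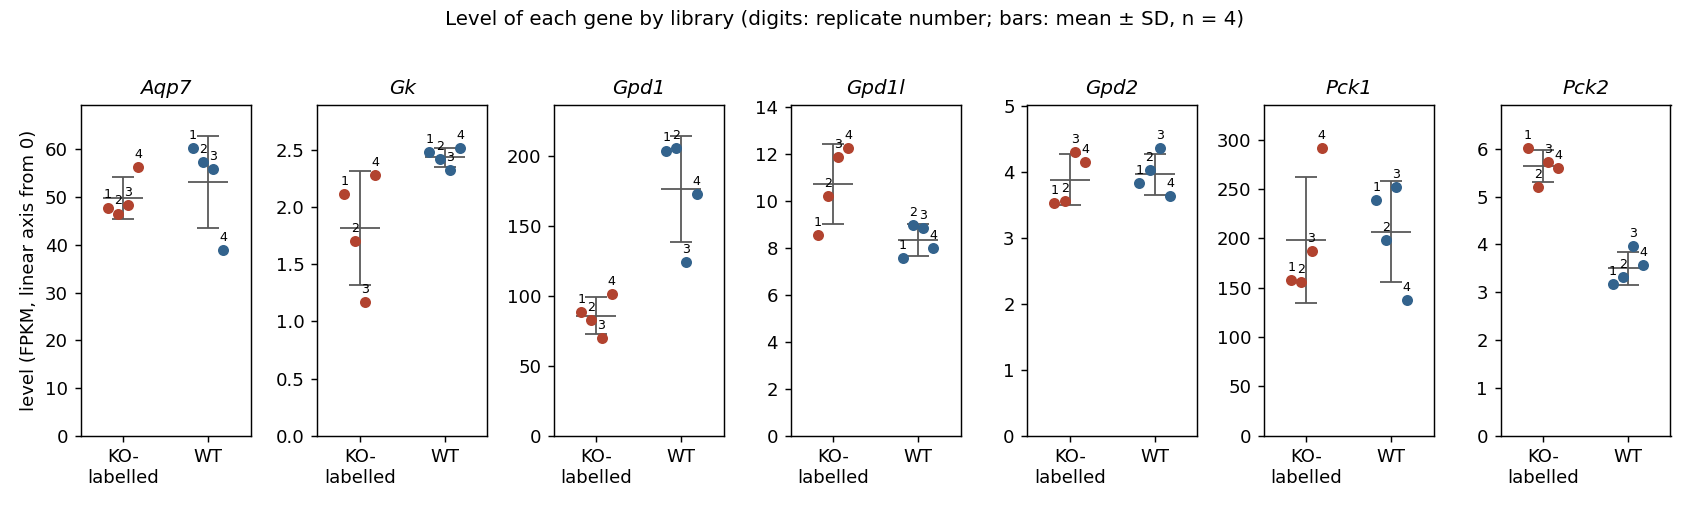
Level of each of the 7 genes in FPKM on linear axes from 0, with 1 point per library, digits for the replicate number and bars for mean ± SD (n = 4 per group). The 4 KO-labelled libraries lie below all WT libraries for Gpd1 and Gk and above them for Pck2, and for Pck1 and Aqp7 KO4 is the highest of its group and WT4 the lowest of its own.

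In KO-labelled fat the order of mean FPKM was Pck1 (198), Gpd1 (85.8), Aqp7 (49.8), Gpd1l (10.7), Pck2 (5.63), Gpd2 (3.88) and Gk (1.82), and no neighbours in this order overlapped. In WT fat the order was Pck1 (207), Gpd1 (177), Aqp7 (53.1), Gpd1l (8.34), Gpd2 (3.96), Pck2 (3.50) and Gk (2.44). There Pck1 and Gpd1 overlapped, with Pck1 the higher in only 2 of 4 WT libraries, and so did the ranges of Gpd2 and Pck2. Pck1 was 2.31 times Gpd1 in KO-labelled fat and 1.17 times Gpd1 in WT. FPKM divides by all annotated exon bases, which for Pck2 (7806 bases) and Gk (7743 bases) is far above their longest annotated coding transcripts of 4625 and 4340 bases, so levels of these 2 genes are understated beside the others.

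Aqp7, the channel through which adipocytes release glycerol (ENSMUSG00000028427, chromosome 4, 41033074 to 41048139, minus strand), was not called. It had 47.8, 46.6, 48.4 and 56.3 FPKM in KO1 to KO4, against 60.2, 57.5, 55.9 and 38.8 FPKM in WT1 to WT4. The groups overlapped through KO4 and WT4, which lay outside the range of the other libraries of their groups on the side of the other group. The log2 difference was -0.08 ± 0.14 (limma SE, adjusted p = 0.713), and the 95% interval of the ratio ran from 0.755 to 1.19. Without KO4 and WT4 together, a choice made after seeing the data, Aqp7 was called lower at -0.28 (limma adjusted p = 0.0301). That choice removes the libraries through which the groups overlapped, so the call is no separate support for a fall. With any single library left out, Aqp7 was not called (limma adjusted p of 0.106 to 0.973).

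Of 10 other aquaporins 3 were tested, of which 1 was lower and 1 higher. Aqp1, a water channel of capillary endothelium, fell to 146 ± 5.87 FPKM in KO-labelled fat, against 236 ± 22.5 FPKM in WT (log2 difference -0.69 ± 0.10, limma adjusted p = 0.00132). Of 10 endothelial markers 9 were lower and none higher, with sums of 182 to 214 FPKM in KO-labelled fat and 271 to 382 FPKM in WT. Aqp7 is also known from capillary endothelium, and the part of these markers in the Aqp7 and Aqp1 values was not tested. Aqp11, a channel of intracellular membranes, was higher at 0.693 ± 0.173 FPKM in KO-labelled fat and 0.355 ± 0.0364 FPKM in WT (0.47 ± 0.15, limma adjusted p = 0.0476), a call that 13 of 21 alternatives ended, leaving out any library but KO2 among them. Aqp9, an aquaglyceroporin of liver, had 0.674 ± 0.602 FPKM in KO-labelled fat and 0.881 ± 0.759 FPKM in WT (limma adjusted p = 0.706). Aqp3, another glycerol channel, was at 0.133 FPKM or less in every library, which is at most 6 reads.

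Gk, which phosphorylates glycerol to glycerol 3-phosphate (ENSMUSG00000025059, chromosome X, 85701937 to 85776819, minus strand), had the lowest level of the 7. It stood at 2.11, 1.71, 1.17 and 2.28 FPKM in KO1 to KO4, against 2.49, 2.42, 2.33 and 2.52 FPKM in WT1 to WT4, from 219 to 491 reads. Every KO-labelled library lay below every WT library, although KO4 and WT3 differed little. The spread was wider in KO-labelled fat, where the coefficient of variation was 27.3% against 3.45% in WT. The log2 difference of -0.37 ± 0.15 was not called (limma adjusted p = 0.102), while p was 0.0286 by exact permutation, two-sided, which is the lowest value 4 against 4 can reach. The limma adjusted p of Gk ran from 0.0416 to 0.422 over the alternatives, the lowest with array weights.

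The Gk paralog Gk5 was higher in KO-labelled fat, at 1.28 ± 0.25 FPKM against 0.698 ± 0.072 FPKM in WT (0.56 ± 0.13, limma adjusted p = 0.0116), a call lost without WT1 and WT2 together. Another 3 enzymes around glycerol and its oxidised forms fell: Akr1b3, aldose reductase (-0.34 ± 0.07), Pgp, a phosphatase that can act on glycerol 3-phosphate (-0.52 ± 0.14), and Fggy, a sugar kinase of the same superfamily as glycerol kinase (-0.34 ± 0.10), with limma adjusted p of 0.00650, 0.0215 and 0.0358. All 3 calls were lost when libraries were scaled to a sum of 1000000, and those of Pgp and Fggy also without any 1 of KO2, KO3, WT1 or WT2. Over this list of 11 genes, 10 were tested, of which 1 was higher and 3 lower, beside 11.7% and 18.6% of all tested genes.

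The 250 bases upstream of the RefSeq start (build GRCm38.p6) are shown for Gk and Gpd1l. Among the members searched, only their windows held the core of the antioxidant response element. This is the site of NRF2, a factor that a cullin 3 ligase controls. Capitals mark matches on either strand to 6 motifs. They were the TATA box (TATAAA), the core of a cAMP response element (TGACG), the CCAAT box (CCAAT), the antioxidant response element core (TGACNNNGC), the core of a C/EBP-ATF element (TGATGNAA) and DR1, the PPAR type. The Gk window is chrX:85776820-85777069 and the Gpd1l window chr9:114933988-114934237, both on the minus strand and printed in the direction of the gene.
Gk: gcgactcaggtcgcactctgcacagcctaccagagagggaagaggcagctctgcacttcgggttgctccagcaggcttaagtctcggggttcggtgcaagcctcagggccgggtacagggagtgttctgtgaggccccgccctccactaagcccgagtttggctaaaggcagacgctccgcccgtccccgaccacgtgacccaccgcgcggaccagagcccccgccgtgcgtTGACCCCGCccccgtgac
Gpd1l: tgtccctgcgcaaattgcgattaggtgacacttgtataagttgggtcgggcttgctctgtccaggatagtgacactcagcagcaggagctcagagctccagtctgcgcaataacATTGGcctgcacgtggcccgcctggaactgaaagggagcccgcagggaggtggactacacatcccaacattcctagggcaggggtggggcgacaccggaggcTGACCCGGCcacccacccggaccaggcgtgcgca
The TGACNNNGC match began 18 bases before the start in Gk and 34 bases before it in Gpd1l, and Gpd1l also held a CCAAT match on the other strand 136 bases before it. Of 32851 promoter windows of this length, 10.2% held TGACNNNGC and 33.8% held CCAAT. None of the 6 motifs matched in the windows of Aqp7 or Gpd2. No window was at hand for Gpd1, so its promoter was not searched. A match describes letters in this window and nothing about binding.

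Gpd1, the cytosolic dehydrogenase that makes glycerol 3-phosphate from dihydroxyacetone phosphate (ENSMUSG00000023019, chromosome 15, 99717515 to 99725005, plus strand), fell in KO-labelled fat. It had 88.7, 82.9, 69.96 and 102 FPKM in KO1 to KO4, against 204, 206, 125 and 173 FPKM in WT1 to WT4. The groups did not overlap, and WT3 was the WT library nearest to the KO-labelled ones. The means were 85.8 ± 13.2 FPKM in KO-labelled fat and 177 ± 38.0 FPKM in WT (SD, n = 4 each), a ratio of 0.485, with a log2 difference of -1.03 ± 0.18 (limma adjusted p = 0.00395) and a 95% interval of the ratio from 0.369 to 0.654.

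Gpd1 is also a liver enzyme, and WT1 and WT2, the highest for Gpd1, held the most Alb, at 49.96 and 104 FPKM, against 2.82 to 9.74 FPKM in KO-labelled fat and 13.3 and 6.55 FPKM in WT3 and WT4. Of 10 hepatocyte markers 4 were lower and none higher, and none was at 0 in every library. Their sums were 50.8 to 178 FPKM in KO-labelled fat and 80.7 to 799 FPKM in WT. Cyp2e1, which was not called, held 40.0 to 169 FPKM of these sums in KO-labelled fat and 60.7 to 312 FPKM in WT. In KO4 it held 169 of 178 FPKM, while Alb was at 5.04 FPKM there. Without WT1 and WT2 the difference in Gpd1 was -0.79 (limma adjusted p = 0.0482), and the part of hepatocyte transcripts in the Gpd1 values was not tested.

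Gpd1l, a cytosolic relative of Gpd1 known in human heart for variants that disturb the sodium channel (ENSMUSG00000050627, chromosome 9, 114899341 to 114933987, minus strand), was the next most abundant dehydrogenase. It had 8.57, 10.2, 11.9 and 12.3 FPKM in KO1 to KO4, against 7.57, 8.96, 8.86 and 7.98 FPKM in WT1 to WT4. KO1 lay within the WT range and the other 3 KO-labelled libraries above it. The log2 difference of 0.34 ± 0.12 missed the threshold (limma adjusted p = 0.0594), with a 95% interval of the ratio from 1.05 to 1.52. It was called in 6 of 22 alternatives, among them without KO1 (0.43, limma adjusted p = 0.0146) and scaled to a sum of 1000000 (0.62, limma adjusted p = 0.0081).

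Gpd2, the mitochondrial dehydrogenase of the glycerol phosphate shuttle (ENSMUSG00000026827, chromosome 2, 57237635 to 57370719, plus strand), was not called. It had 3.53, 3.56, 4.29 and 4.14 FPKM in KO1 to KO4, against 3.83, 4.03, 4.36 and 3.63 FPKM in WT1 to WT4. The groups overlapped in part, with KO1 and KO2 below every WT library and WT3 above every KO-labelled one. The log2 difference was -0.03 ± 0.09 (limma adjusted p = 0.840), and the 95% interval of the ratio ran from 0.853 to 1.13. An antisense gene, A930012O16Rik, shares 487 exon bases with Gpd2 and has a mean of 0.720 FPKM, so reads of the pair cannot be told apart where counting ignored strand. The same holds for Gpd1, which shares 384 exon bases with the antisense gene Gm16537, at a mean of 0.309 FPKM. Gk and Pck2 share 84 and 53 exon bases with antisense genes that have no listed level.

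Gpd1 made up less of the dehydrogenase transcripts in KO-labelled fat, and Gpd1l and Gpd2 more. Their summed level was 100.4 ± 13.3 FPKM in KO-labelled fat and 189 ± 37.6 FPKM in WT, and Gpd1 made up 85.3% ± 2.86 of it in KO-labelled fat and 93.2% ± 1.92 in WT. Gpd1l held 10.8% ± 2.19 of the sum in KO-labelled fat and 4.59% ± 1.27 in WT. Each of these comparisons had an exact permutation p = 0.0286, two-sided and not adjusted. Shares of the same sum are tied, so a fall of Gpd1 alone raises those of Gpd1l and Gpd2. The levels of Gpd1l and Gpd2 themselves were not called. Ratios within a library were taken on the log2(FPKM + 0.5) scale. The ratio of Gpd1l to Gpd1 was 2.57-fold higher in KO-labelled fat (log2 ratio -2.94 ± 0.32 in KO-labelled fat and -4.30 ± 0.40 in WT, SD), and that of Gpd2 to Gpd1 was 1.997-fold higher (-4.29 ± 0.28 in KO-labelled fat and -5.29 ± 0.41 in WT). Both ratios stood apart between the groups with an exact permutation p = 0.0286, two-sided, but adjusted over the 6 pairs compared each came to 0.0857, which misses the threshold.

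Pck1, the cytosolic PEPCK and the enzyme of glyceroneogenesis in fat (ENSMUSG00000027513, chromosome 2, 173153048 to 173159273, plus strand), was the most abundant of the 7. It was not called. It had 158, 156, 187 and 291 FPKM in KO1 to KO4, against 239, 198, 252 and 138 FPKM in WT1 to WT4, from 11608 to 24741 reads. KO4 was the highest library of all and WT4 the lowest of all, and the other 6 libraries did not overlap between groups, with KO1 to KO3 below WT1 to WT3. The log2 difference was -0.07 ± 0.25 (limma adjusted p = 0.848), and the 95% interval of the ratio ran from 0.639 to 1.41. KO4 and WT4 were left out together after their values were seen, which sets the other 6 libraries apart by choice. Pck1 was then called lower at -0.46 (limma adjusted p = 0.0324), which is no separate support for a fall. KO4 and WT4 also stood apart from their groups in macrophage and adipocyte markers, and the part of these markers in the Pck1 values was not tested.

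Pck2, the mitochondrial PEPCK (ENSMUSG00000040618, chromosome 14, 55540266 to 55551242, plus strand), rose. It had 6.01, 5.21, 5.73 and 5.59 FPKM in KO1 to KO4, against 3.18, 3.32, 3.96 and 3.56 FPKM in WT1 to WT4. Every KO-labelled library lay above every WT library, and both groups were tight, with coefficients of variation of 5.94% in KO-labelled fat and 9.84% in WT. The means were 5.63 ± 0.335 FPKM in KO-labelled fat and 3.50 ± 0.345 FPKM in WT, a ratio of 1.61, and the log2 difference was 0.62 ± 0.08 (limma adjusted p = 0.00103) with a 95% interval of the ratio from 1.35 to 1.75. The call held in all 22 alternatives, with log2 differences of 0.53 to 0.94.

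Pck2 stayed a small part of the PEPCK transcripts. It held 2.94% ± 0.760 of their summed FPKM in KO-labelled fat and 1.76% ± 0.529 in WT, and the sum itself was 204 ± 63.8 FPKM in KO-labelled fat and 210 ± 51.5 FPKM in WT. The log2 ratio of Pck2 to Pck1 was 0.69 higher in KO-labelled fat, and the groups overlapped through KO4 and WT4 (exact two-sided permutation p = 0.0571, 0.114 adjusted over the 6 pairs). The ratios of Gpd1 to Pck1, Gk to Pck1 and Gk to Aqp7 changed by -0.95, -0.30 and -0.29 on the log2 scale, with adjusted exact permutation p of 0.129, 0.371 and 0.371.

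The upstream windows of the pair are shown because 1 member was called and the other was not. The Pck1 window is chr2:173152823-173153072 and the Pck2 window chr14:55540016-55540265, both on the plus strand of GRCm38.p6, from RefSeq, with the same motifs in capitals.
Pck1: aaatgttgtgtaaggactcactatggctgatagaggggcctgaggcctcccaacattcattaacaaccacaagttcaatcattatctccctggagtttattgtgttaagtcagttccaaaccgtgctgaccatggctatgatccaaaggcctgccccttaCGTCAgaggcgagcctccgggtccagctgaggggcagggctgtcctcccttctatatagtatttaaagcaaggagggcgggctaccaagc
Pck2: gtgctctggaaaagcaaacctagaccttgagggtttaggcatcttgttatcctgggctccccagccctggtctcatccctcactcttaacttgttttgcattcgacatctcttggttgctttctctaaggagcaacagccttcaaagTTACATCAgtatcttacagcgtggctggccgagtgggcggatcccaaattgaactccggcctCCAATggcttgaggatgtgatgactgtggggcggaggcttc
Pck1, a textbook gene of the cAMP response, held the TGACG core on the other strand 90 bases before its start, a motif found in 17.8% of all windows. Pck2 held a CCAAT match 41 bases before its start and, on the other strand 103 bases before it, a match to TGATGNAA, which 3.45% of all windows held. The pair shared no motif of the 6 in these windows, and DR1, found in 0.0335% of all windows, matched in none of the members searched.

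**Figure D2:**
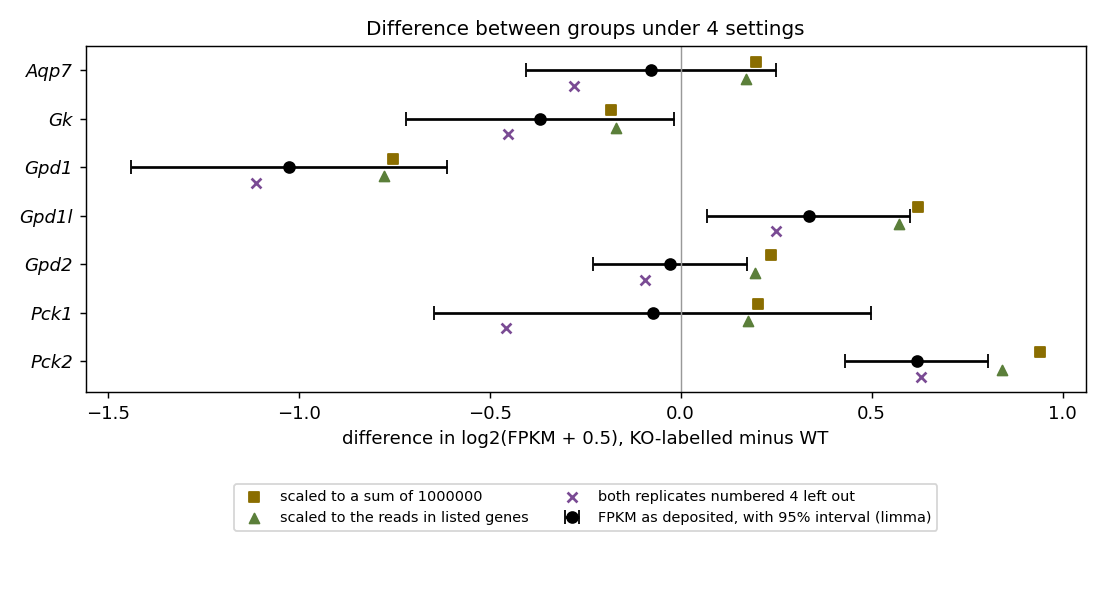
Difference in log2(FPKM + 0.5), KO-labelled minus WT, for each gene, with the 95% interval for FPKM as deposited (circles and bars), and the same difference after 2 other scalings (squares, triangles) and without KO4 and WT4 (crosses). Gpd1 lies below 0 and Pck2 and Gpd1l above 0 in all 4 settings, whereas Aqp7, Gpd2 and Pck1 lie on either side of 0 depending on the setting.

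Scaling moved all 7 genes together. Listed genes took 62.6% to 66.1% of the FPKM denominator in KO-labelled libraries and 74.1% to 78.7% in WT, and scaling each library to a sum of 1000000 moved the median log2 difference of all tested genes to 0.24, and scaling to the reads in listed genes to 0.19. The differences of Aqp7, Gpd2 and Pck1 became 0.20, 0.24 and 0.20 with the first scaling, without a call. Relative to the median of all genes, they were -0.04, 0.00 and -0.04, those of Gpd1 and Gk -0.99 and -0.42, and those of Gpd1l and Pck2 0.38 and 0.70.

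Levels were also set against the adipocyte markers of the same library. The mean log2(FPKM + 0.5) of the 16 markers was 6.88 ± 0.22 in KO-labelled fat and 7.97 ± 0.26 in WT, lower by 1.09 (exact two-sided permutation p = 0.0286). Relative to it, Gpd1 stood at -0.46 ± 0.14 in KO-labelled fat and -0.52 ± 0.36 in WT, a difference of 0.06 (exact permutation p = 0.771, also 0.771 adjusted over the 7 genes). Pck1 stood at 0.70 ± 0.23 in KO-labelled fat and -0.31 ± 0.29 in WT, a difference of 1.01. Aqp7 stood at -1.23 ± 0.10 in KO-labelled fat and -2.24 ± 0.13 in WT, also a difference of 1.01. For these 2 genes KO4 and WT4 no longer overlapped with the other group. Gpd2, Gpd1l and Pck2 were higher relative to the markers by 1.06, 1.42 and 1.70, and each of these 5 genes reached the smallest exact permutation p of 0.0286, 0.04 adjusted over the 7 genes. Gk was higher by 0.72 with overlapping groups (adjusted exact permutation p = 0.0667). Of all other tested genes, 74.2% were likewise higher without overlap on this measure and 0.674% lower, so 5 of 7 is near the background and is no result about these genes.

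**Figure D3:**
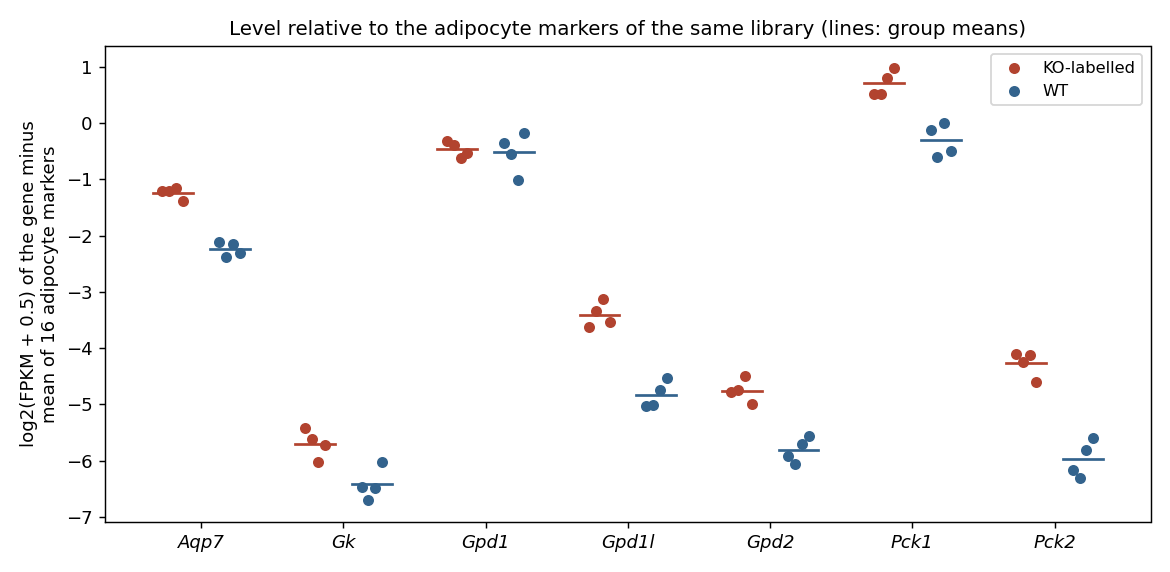
Level of each gene relative to adipocyte markers, as log2(FPKM + 0.5) of the gene minus the mean over 16 markers in the same library, with 1 point per library and lines for group means (n = 4 per group). KO-labelled and WT points of Gpd1 lie at the same height (means -0.46 and -0.52), and those of Aqp7 and Pck1 are 1.01 apart without overlap.

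Profiles over the 8 libraries were compared by likeness, which was measured as the root mean square difference of log2 profiles, each centred on its own mean, among 5848 genes with a mean of at least 5 FPKM. The genes most like Gpd1 were Pex16, a peroxisome assembly gene (0.0938 log2 units), Pcbd2 (0.114) and Lrpap1, a chaperone of lipoprotein receptors (0.124), where the median gene was 0.531 away and the nearest member, Gk, 0.387 away. Those most like Pck1 were Cxxc5 (0.136) and 2 genes of mitochondrial catabolism, Dbt of branched-chain amino acids (0.152) and Acads of short fatty acids (0.163). Closest to Aqp7 were Phyh, a peroxisomal hydroxylase of phytanic acid (0.0740), Nrbp2 (0.0744) and Ajuba (0.0761). Pck2 was most like Herpud1, of the degradation of proteins from the endoplasmic reticulum (0.0696), Cds2, of phospholipid synthesis (0.0776), and Abcc1, an export pump for glutathione conjugates (0.0861). The closest to Gk were Jkamp, Nat9 and H2afv (0.110 to 0.120), to Gpd1l Vezf1, Zfp395 and Spin1 (0.0724 to 0.0782), and to Gpd2 Ammecr1l, Eif2s3y and Lgalsl (0.0438 to 0.0498).

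Of 16 genes of triglyceride assembly, a list that holds enzymes acting on glycerol 3-phosphate and its products and others acting on monoglyceride, 15 were tested, of which 9 were lower and none higher, with a median log2 difference of -0.38 against -0.07 for the 7 members and -0.02 for all tested genes. Dgat2, which adds the last acyl chain, fell to 130 ± 38.0 FPKM in KO-labelled fat, against 739 ± 128 FPKM in WT (-2.53 ± 0.22, limma adjusted p = 0.000126). Agpat2, of the second acylation, fell to 73.2 ± 30.3 FPKM, against 209 ± 44.2 FPKM in WT (-1.56 ± 0.27, limma adjusted p = 0.00350), and Mogat2, which acylates monoglyceride, to 2.21 ± 0.536 FPKM, against 10.4 ± 1.59 FPKM in WT (-2.02 ± 0.16). Agpat2 lost its call without WT1 and WT2 together. The shares of all tested genes to set beside the counts of this list and those below are 11.7% higher and 18.6% lower.

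Of 10 genes of lipolysis, a list that holds lipases, receptors and genes that restrain the lipases, 7 were lower and 1 higher, with a median of -0.61. Plin1, Lipe and Adrb3, all lower, also stand among the adipocyte markers counted above. Mgll, which frees glycerol from monoglyceride, fell to 75.7 ± 9.91 FPKM in KO-labelled fat, against 204 ± 33.2 FPKM in WT (-1.42 ± 0.15, limma adjusted p = 0.000300). The β3-adrenergic receptor gene Adrb3 fell by 3.46, and G0s2, an inhibitor of the first lipase, fell by 1.87.

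Genes around the supply of oxaloacetate and pyruvate mostly fell. The list is wider than the genes that feed Pck1 and Pck2. It includes 4 pyruvate dehydrogenase kinases, which hold pyruvate back from oxidation, and of these 2 rose. Of 21 genes 12 were lower and 3 higher, with a median of -0.55. Pdk4, a pyruvate dehydrogenase kinase induced by fasting, rose to 78.4 ± 20.2 FPKM in KO-labelled fat, against 18.2 ± 2.89 FPKM in WT (2.05 ± 0.18, limma adjusted p = 0.000163), and Pdk2, of the same family, to 39.3 ± 4.38 FPKM, against 15.4 ± 2.80 FPKM in WT (1.34 ± 0.14). Got2, the mitochondrial aspartate aminotransferase, rose by 0.58 ± 0.11. Pdk3, a kinase of the same family named here after its values were seen, fell by 0.44, and Pdk1 had a difference of 0.11 that was not called. The alanine aminotransferase gene Gpt2 fell by 1.02, the dicarboxylate carrier gene Slc25a10, which can export malate, fell by 1.33, and the citrate carrier gene Slc25a1 fell by 1.59, each with a limma adjusted p of at most 0.000963.

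On the glucose side, which supplies dihydroxyacetone phosphate to Gpd1, 12 of 14 genes were tested, since Aldoa stands on 2 gene IDs and was left out and Aldoc did not pass the filter. Of the 12, 5 were lower and 2 higher, with a median of -0.14. The lower genes include Slc2a4, which is also among the adipocyte markers counted above. They also include Gapdh, whose listed level is low for an abundant transcript, as described at the end. Tpi1, which interconverts the triose phosphates, fell to 69.4 ± 5.83 FPKM in KO-labelled fat, against 143 ± 22.5 FPKM in WT (-1.03 ± 0.13, limma adjusted p = 0.000743). Pfkfb3, which makes the activator of phosphofructokinase, fell by 1.53 and Pfkl, the liver type of that enzyme, by 0.44. The glucose transporter gene Slc2a1 rose by 0.44 ± 0.11 and Gpi1, glucose phosphate isomerase, by 0.27 ± 0.08. Slc2a1 lost its call without KO3, Pfkl without any 1 of KO2, KO3, WT1 or WT2, and Gpi1 without any 1 of KO1, KO2, WT1 or WT3.

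Among 20 regulators known for the members, 7 were higher and 3 lower, with a median of 0.17. Of the lower ones, Pparg and Cebpa also stand among the adipocyte markers counted above. Pparg, the nuclear receptor that drives Aqp7, Gk and Pck1 in adipocytes, fell to 33.2 ± 4.996 FPKM in KO-labelled fat, against 52.1 ± 6.05 FPKM in WT (-0.65 ± 0.12, limma adjusted p = 0.00579), and Cebpa to 133 ± 6.41 FPKM, against 265 ± 30.2 FPKM in WT (-0.99 ± 0.11). Nr1h3, the liver X receptor α, fell by 0.29, a call that 13 of 22 alternatives ended. The insulin receptor gene Insr, through which insulin represses Pck1, rose to 9.75 ± 0.761 FPKM, against 7.18 ± 0.690 FPKM in WT (0.42 ± 0.09, limma adjusted p = 0.00919), and Ppara (0.77 ± 0.19) and Irs1 (0.50 ± 0.14) rose as well. These 3 calls were lost without WT1 and WT2 together, and that of Irs1 also without any 1 library but KO1 or WT3.

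**Figure D4:**
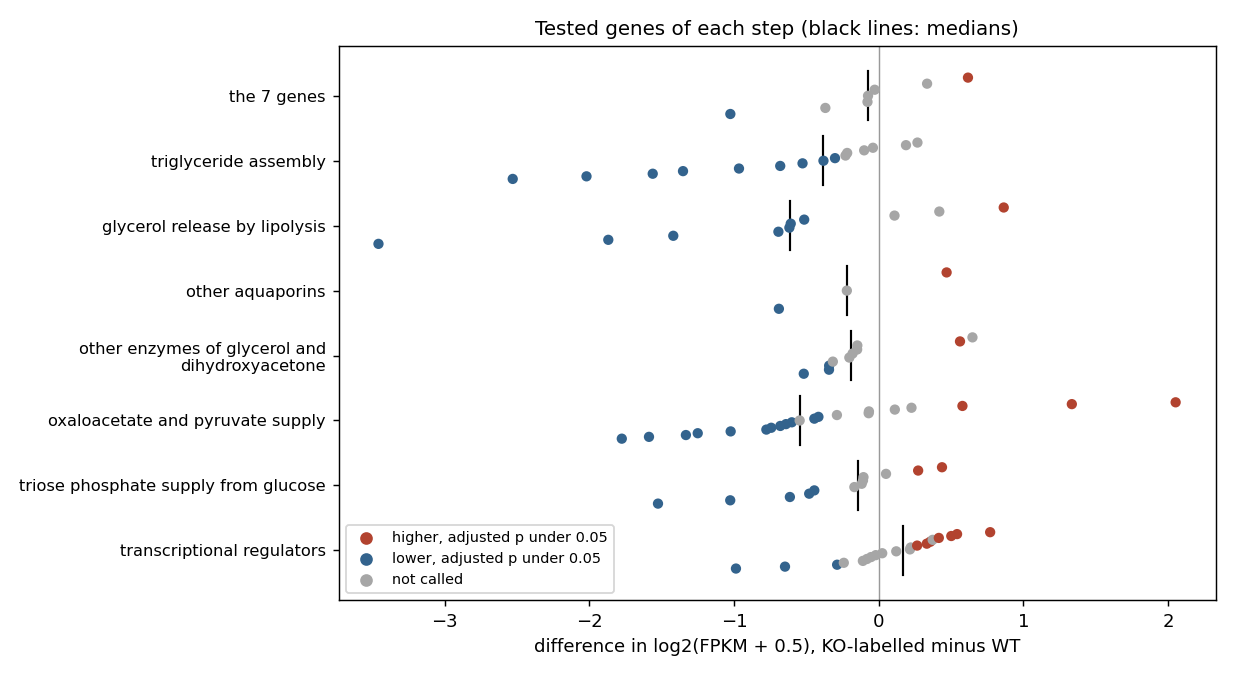
Difference in log2(FPKM + 0.5), KO-labelled minus WT, of each tested gene among the 7 members and in 7 lists of neighbouring steps, with colour for the call and black lines for medians. The lists of triglyceride assembly, lipolysis, and oxaloacetate and pyruvate supply have medians of -0.38, -0.61 and -0.55. The median of the 7 genes is -0.07, which is the value of Pck1. Other aquaporins, other enzymes of glycerol and the glucose side have medians of -0.22, -0.19 and -0.14, and the regulators 0.17.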

How the data were processed

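Poly(A) RNA of 8 libraries was sequenced after TRIzol extraction and random-hexamer cDNA synthesis, per the labels' protocols. The authors deposited FPKM values for 28295 genes. Per the submitters' processing notes, HISAT2 2.0.5, featureCounts and build mm10 were used. Annotation release and strand setting were not stated there. Symbols, coordinates (1-based) and exon lengths came from GENCODE M21, and 28255 gene IDs matched. Low values stepped in whole reads: of values between 0.5 and 200 reads, 97.9% were whole to within 0.02, and reads could be recovered in all libraries for 97.2% of genes.

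The deposited FPKM were put on the log2(FPKM + 0.5) scale and fitted by limma 3.58.1 in R 4.3.3 with trend and robust moderation, two-sided, Benjamini-Hochberg over the 14400 genes with a mean of at least 0.5, which understates changes of low genes. All 8 libraries entered 1 fit without a covariate. The labels name mice but not separate animals per library, so p-values measure the spread between libraries. Errors are SDs (n = 4) beside FPKM and limma SEs beside log2 differences. Ratios within libraries were compared with exact two-sided permutation tests. The fit was tested on simulated data. Members and lists were chosen with earlier results of these data known. In each of 7 pathway lists, up to 3 called genes per direction were named by the smallest adjusted p. The values of 1 gene that this rule picks are not reported here. For each member, the 3 genes with the most similar profile were named, leaving out predicted genes and pseudogenes. Promoter windows came from RefSeq. Other steps ran in Python 3.11.15 with scipy 1.17.1, pandas 2.3.3, matplotlib 3.10.9 and numpy 2.4.6.

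Alternatives were other pseudocounts, filters, scalings and weights, limma without trend, a replicate block, voom on recovered reads, and left-out libraries. Leaving out KO4 and WT4 together, and WT1 and WT2 together for ratios, was chosen after seeing the data. Replicate numbers are not said to mark a shared litter or day. Same-numbered libraries did not deviate together, which cannot exclude such pairing.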

Additional observations from a re-analysis of the deposited data

Results flagged for a closer look

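Of 42 sets of 4 libraries examined for a library far from the others of its group, 1 stood out. By chance about 1 set in 20 does so, and 1 of 42 is no more than chance gives. The log2 ratio of Gk to Aqp7 was -3.71 in WT4, against -4.35 to -4.31 in WT1 to WT3, with the gap taking 0.945 of the range of the group. WT4 also had the lowest Aqp7 of all libraries, at 38.8 FPKM, and its Gk, at 2.52 FPKM, lay close to that of the other WT libraries. It held 1553 FPKM of summed macrophage markers, against 566 to 662 FPKM in WT1 to WT3, and their part in the ratio was not tested.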

How the results depend on the processing

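Gpd1 and Pck2 kept their direction and call in all 22 alternatives, with log2 differences of -1.18 to -0.75 and 0.53 to 0.94. The number of members called higher was 2 under 5 settings, which were scaling to a sum of 1000000, scaling by listed reads, quantile normalization, array weights and voom, and 1 to 2 when 1 library was left out. The added member was Gpd1l, at 0.62, 0.57, 0.43, 0.38 and 0.35 in that order, and at 0.27 to 0.43 with 1 library left out. The number called lower was 2 with array weights, through Gk (-0.45), 1 to 1 when 1 library was left out, and 3 without KO4 and WT4, through Aqp7 (-0.28) and Pck1 (-0.46). Values that were not called changed sign. Aqp7 was 0.20 scaled to a sum of 1000000, 0.17 scaled by listed reads, 0.15 after quantile normalization and 0.090 without WT1 and WT2. Pck1 was 0.20, 0.18, 0.19 and 0.040 under the same 4 settings. Gpd2 was 0.24 and 0.20 under the first 2. With 1 library left out, Pck1 ran from -0.27 to 0.034 and Gpd2 from -0.072 to 0.014. Cul3 was 0.37 and 0.33 under the first 2 scalings, then past the threshold (limma adjusted p = 0.048 and 0.0399). Relative to the adipocyte markers, Gk passed the threshold with 4 markers only (0.70) and with a pseudocount of 1 (0.75), and Gpd1 ran from -0.10 to 0.18 with 1 library left out. The ratio of Gk to Pck1 was 0.0046 without KO4 and WT4. Ratios with 1 library left out have no test here, since 3 against 4 cannot go below 0.0571. The cause of these shifts was not tested.

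Of 30 genes picked by the naming rule in the neighbouring steps, 16 kept their call in all alternatives and 14 lost it in at least 1, with no change of sign. With the replicate block, members higher and lower stayed at 1 and 1, and calls over all genes were 1113 higher and 1995 lower, against 1689 and 2683. Deviations of same-numbered libraries had correlations of -0.06, -0.13, 0.17 and -0.32. So few values cannot show or exclude a shared litter or day. Array weights gave 2438 and 3376, leaving out WT1 and WT2 722 and 1036, and scaling to a sum of 1000000 4226 and 1190. At 219 reads, the lowest Gk library gives the least precise level of the 7 genes.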

Other observations

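Transcripts of testis and epididymis were uneven across libraries. Gk2, a glycerol kinase gene of testis, had 0.0365, 0.0000, 0.286 and 0.129 FPKM in KO1 to KO4, and 0.0222 FPKM in WT2 with the other WT libraries at 0, from at most 13 reads. Prm1, a protamine gene of sperm, was highest in the same KO3 library, at 12.8 FPKM. Crisp1, an epididymal secretory gene, was at 203 FPKM in KO1, against 0.200 to 7.92 FPKM in KO2 to KO4 and 0 to 7.66 FPKM in WT. Of 8 epididymis and testis markers 6 were tested, and none was called at a limma adjusted p below 0.05.

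Gapdh, the glycolytic enzyme gene beside Tpi1 in the pathway, was listed at 0.635 to 0.869 FPKM in KO-labelled libraries and 1.06 to 1.71 FPKM in WT, from 65 to 180 reads, which is low for an abundant transcript. Gapdh was called lower (-0.48 ± 0.14, limma adjusted p = 0.0323) and is named here after its values were seen. The treatment of reads with several matches was not stated.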
